A study of Rattus norvegicus with 9 samples.

Results

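The marrow stromal niche genes described here are Lepr, Kitlg, Angpt1, Vcam1, Il7, Foxc1, Ebf3, Pdgfra, Pdgfrb and Nes, chosen by gene symbol. These are 10 of the 23026 genes quantified, and all 10 passed the filter on low counts, which left 16874 genes. Messenger RNA was sequenced from the bone of female Sprague-Dawley rats, bought at 8 weeks of age, in 3 groups of 3 libraries, each library from a separate animal. Sham rats lost ovary-adjacent fat but kept their ovaries, and OVX rats were ovariectomized. OVX-AS-IV-High rats were ovariectomized and, from 6 weeks after surgery, received astragaloside IV (AS-IV, a saponin of Astragalus root) by gavage at 80 mg/kg for 8 weeks. The study's methods state that AS-IV was prepared in 1% carboxymethyl cellulose sodium (CMC-Na). Sham and OVX rats received this vehicle without AS-IV. The labels give it at 1%, 2% and 3% for Sham replicates 1, 2 and 3 and at 1% for all OVX libraries, while the study's methods give 1% for both groups. The Sham libraries were treated as a group of 3. Total counts ranged from 34874880 to 37298250 per library.

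In bone marrow, perivascular stromal cells that express the leptin receptor form much of the niche in which blood stem cells are kept. They secrete stem cell factor (Kitlg), angiopoietin-1 (Angpt1) and interleukin-7 (Il7), display the adhesion molecule Vcam1, and depend on the transcription factors Foxc1 and Ebf3 to hold their state and to keep marrow from turning to fat or bone. The platelet-derived growth factor receptors Pdgfra and Pdgfrb and the intermediate filament nestin (Nes) are widely used to mark such cells, though nestin is also made in muscle, vessels and nerve.

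Levels between genes were compared as FPKM, which corrects for gene length. Vcam1 was the most abundant member, at 55.9 ± 9.88 FPKM (mean and SD over 9 libraries), and it exceeded every other member in all 9 libraries. Pdgfrb (16.8 ± 2.26), Kitlg (15.1 ± 3.09), Lepr (10.6 ± 2.33) and Foxc1 (10.4 ± 2.24) followed. Angpt1 (8.26 ± 2.01), Ebf3 (7.31 ± 1.04) and Pdgfra (6.09 ± 1.17) were lower, and Il7 (2.66 ± 0.278) and Nes (1.10 ± 0.845) were lowest. The ranges of neighbours in this order overlapped, except those of Vcam1 and Pdgfrb and those of Pdgfra and Il7. The order was loose in places, since Angpt1 exceeded Ebf3 in 5 of 9 libraries and Ebf3 exceeded Pdgfra in 6 of 9. The stromal chemokine Cxcl12, the retention signal for blood stem cells, stood far above the members, between 164 and 259 FPKM.

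**Figure D1:**
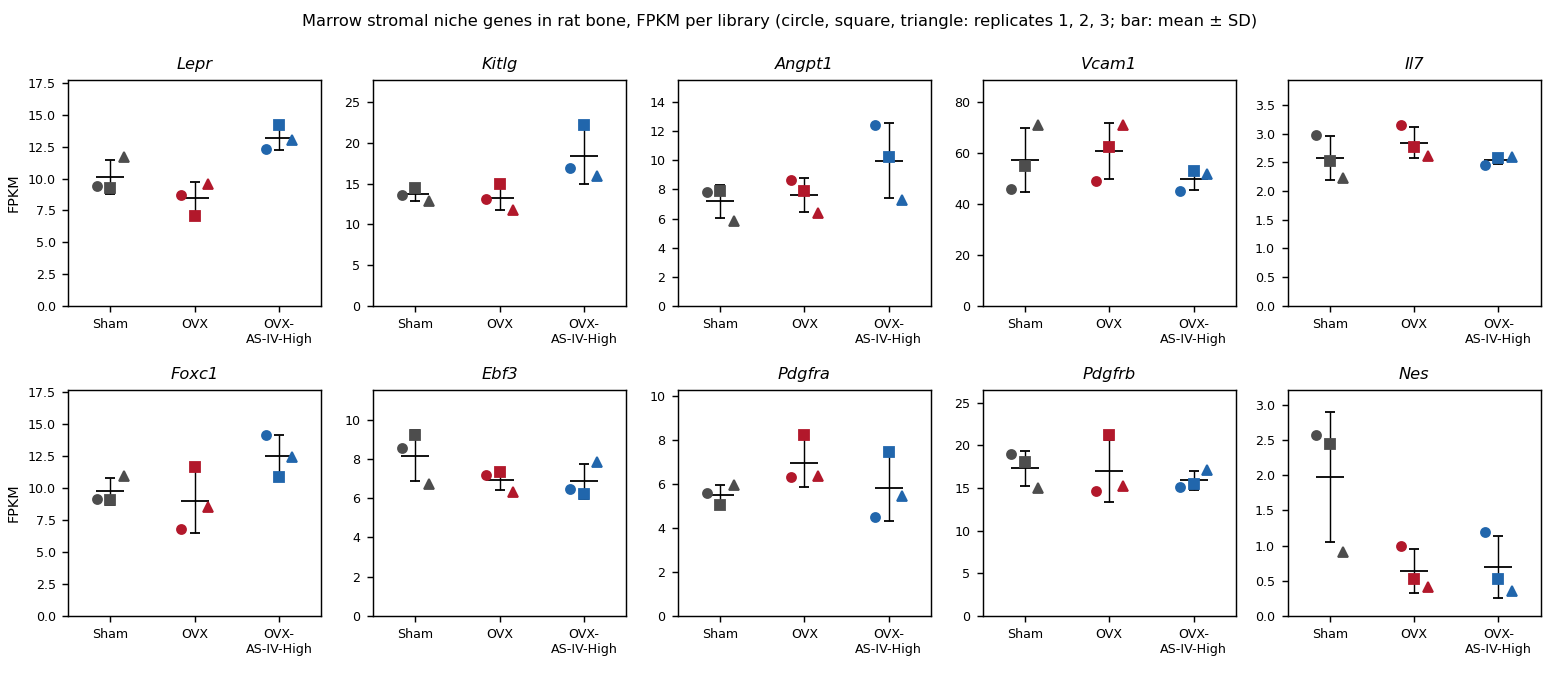
FPKM of each niche gene (y axis, from 0) in the 3 libraries of each group (x axis), with bars for mean ± SD. All OVX-AS-IV-High values of Lepr and Kitlg lie above every Sham and OVX value, and the Nes values of Sham replicates 1 and 2 lie above all others.

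Differences between groups were tested on counts with the quasi-likelihood test of edgeR, and a gene was called at an unadjusted p under 0.05. Lepr, Kitlg and Foxc1 rose in OVX-AS-IV-High against OVX, which asks what AS-IV changes in ovariectomized rats. Nes fell in OVX vs. Sham, which asks what ovariectomy changes. All comparisons share libraries, so their results are not independent. RNA from whole bone cannot tell fewer cells of a type from less RNA per cell.

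Among the secreted and displayed factors, Kitlg, the ligand of the Kit receptor of blood stem cells, stood at 13.6, 14.4 and 12.9 FPKM in Sham replicates 1, 2 and 3. It stood at 13.1, 14.9 and 11.8 FPKM in OVX, then 16.9, 22.2 and 15.9 FPKM for OVX-AS-IV-High. The OVX-AS-IV-High libraries were all above those of the other groups, with replicate 2 the highest, while Sham and OVX overlapped. Its log2FC in OVX-AS-IV-High against OVX was 0.50 ± 0.14 (SE; called, adjusted p = 0.652, edgeR). In OVX-AS-IV-High vs. Sham the log2FC was 0.43 ± 0.14 (called, adjusted p = 0.169, edgeR), and in OVX vs. Sham it was -0.07 ± 0.14 (adjusted p = 0.818). Both calls of Kitlg were kept whichever library was left out, with log2FC from 0.34 to 0.60 in OVX-AS-IV-High against OVX and from 0.28 to 0.53 in OVX-AS-IV-High vs. Sham. Both lowest values came without OVX-AS-IV-High replicate 2, its highest library.

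Angpt1, a ligand of the endothelial and stem cell receptor Tek, stood at 7.80, 7.87 and 5.85 FPKM in Sham. Its OVX libraries held 8.67, 7.88 and 6.35 FPKM, and its OVX-AS-IV-High libraries 12.4, 10.2 and 7.27. OVX-AS-IV-High replicates 1 and 2 were the highest of all 9 libraries, replicate 3 was not, and all 3 groups overlapped. The log2FC of Angpt1 in OVX-AS-IV-High against OVX was 0.43 ± 0.21 (not called, adjusted p = 0.815, edgeR). It was 0.22 without OVX-AS-IV-High replicate 1, and 0.62 and called without OVX-AS-IV-High replicate 3. In a fit of all 9 libraries with the replicate number as a block, it was 0.40 and called (adjusted p = 0.539, edgeR), so the block changed the call. Pairing by number was inferred from these data and is uncertain. Each OVX-AS-IV-High library exceeded the OVX library of its number, by log2 ratios of 0.58, 0.42 and 0.20 in CPM. In OVX-AS-IV-High vs. Sham the log2FC of Angpt1 was 0.49 ± 0.21 (called, adjusted p = 0.271, edgeR). That call was lost without Sham replicate 1 (log2FC 0.54), Sham replicate 3 (0.36), OVX replicate 2 (0.49), OVX-AS-IV-High replicate 1 (0.28) or OVX-AS-IV-High replicate 2 (0.48). It was also lost with limma at pseudocounts of 0.1 (0.45) and 1 (0.41), and with only the groups compared (0.51).

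Vcam1, which binds the integrin that Itga4 encodes, stood at 45.9, 54.9 and 70.8 FPKM in Sham, 49.0, 62.2 and 70.9 in OVX, then 44.9, 52.7 and 51.7 in OVX-AS-IV-High. The 3 groups overlapped, and replicate 1 was the lowest library of each. Il7, the cytokine that early B cells need, stood at 2.98, 2.52 and 2.22 FPKM in Sham, 3.15, 2.77 and 2.61 in OVX, then 2.46, 2.58 and 2.60 in OVX-AS-IV-High. Its OVX-AS-IV-High libraries lay just below its OVX libraries, and Sham overlapped both. Neither gene was called in any comparison. In OVX-AS-IV-High against OVX the log2FC was -0.25 for Vcam1 (95% interval -0.66 to 0.16) and -0.12 for Il7 (-0.50 to 0.25). Leaving out a library gave -0.38 to -0.11 for Vcam1 and -0.18 to -0.04 for Il7 in that comparison.

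Among the receptors, Lepr, the receptor of leptin, stood at 9.46, 9.24 and 11.7 FPKM in Sham. It stood at 8.76, 7.10 and 9.58 FPKM in OVX, then 12.3, 14.2 and 13.1 FPKM for OVX-AS-IV-High. Every OVX-AS-IV-High library lay above all Sham and OVX libraries, and Sham and OVX overlapped through OVX replicate 3. The log2FC in OVX-AS-IV-High against OVX was 0.67 ± 0.14 (adjusted p = 0.652, edgeR), and it was called whichever library was left out (log2FC 0.55 to 0.78). In OVX-AS-IV-High vs. Sham the log2FC was 0.39 ± 0.14 (called, adjusted p = 0.206, edgeR), and in OVX vs. Sham -0.28 ± 0.14 (not called, adjusted p = 0.341). The last was called without OVX replicate 3 (-0.39) and was -0.16 without OVX replicate 2. The call against Sham was lost without Sham replicate 1 (log2FC 0.34), Sham replicate 2 (0.35) or OVX-AS-IV-High replicate 2 (0.34). Lepr overlaps Leprot, a gene for another protein, in the RefSeq table, and reads could be shared between them. Leprot, named for this overlap after its values were seen, had log2FC of -0.03 ± 0.10 in OVX-AS-IV-High against OVX and 0.05 ± 0.10 in OVX-AS-IV-High vs. Sham. Angpt1 and Il7 overlap long noncoding RNA genes in the same table.

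Pdgfra, a growth factor receptor of mesenchymal progenitors, stood at 5.57, 5.03 and 5.92 FPKM in Sham, 6.31, 8.21 and 6.34 in OVX, then 4.49, 7.45 and 5.46 in OVX-AS-IV-High. The OVX libraries lay above all Sham libraries, and the OVX-AS-IV-High libraries overlapped both groups. Its log2FC in OVX vs. Sham was 0.31 ± 0.18 (adjusted p = 0.393, edgeR). Pdgfrb, the related receptor of pericytes, stood at 18.9, 18.1 and 15.0 FPKM in Sham, 14.6, 21.2 and 15.3 in OVX, then 15.1, 15.4 and 17.1 in OVX-AS-IV-High. The groups overlapped, OVX replicate 2 was the highest library, and the log2FC in OVX vs. Sham was -0.05 ± 0.14 (adjusted p = 0.872, edgeR). Pdgfra and Pdgfrb were not called in any comparison with all 9 libraries in edgeR. With only the groups compared, Pdgfra was called in OVX vs. Sham (log2FC 0.31), as it was without OVX-AS-IV-High replicate 2 (0.31). Without that library it was also called in OVX-AS-IV-High against OVX, at -0.45, compared with -0.23 ± 0.18 in the fit of all libraries. The log2FC of Pdgfra in OVX-AS-IV-High against OVX was -0.08 without OVX-AS-IV-High replicate 1. In OVX vs. Sham it was 0.19 without OVX replicate 2.

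Of the transcription factors, Foxc1 stood at 9.16, 9.06 and 11.0 FPKM in Sham. It stood at 6.78, 11.6 and 8.49 FPKM in OVX, then 14.2, 10.9 and 12.4 FPKM for OVX-AS-IV-High. OVX replicate 2 lay above OVX-AS-IV-High replicate 2, so these groups overlapped, and the lowest library was OVX replicate 1. The log2FC in OVX-AS-IV-High against OVX was 0.52 ± 0.19 (called, adjusted p = 0.685, edgeR). The call was lost without OVX replicate 1 (log2FC 0.35), OVX replicate 3 (0.49) or OVX-AS-IV-High replicate 1 (0.40). Its log2FC in OVX-AS-IV-High vs. Sham, 0.37 ± 0.19, was not called, but it was with only the groups compared (0.39) and without OVX replicate 1 or 2 (0.37 in both). Ebf3 stood at 8.54, 9.22 and 6.71 FPKM in Sham, 7.16, 7.31 and 6.33 in OVX, then 6.48, 6.21 and 7.85 in OVX-AS-IV-High. Sham replicates 1 and 2 were the highest libraries, Sham replicate 3 lay among the other groups, and Ebf3 was not called (log2FC in OVX vs. Sham -0.26 ± 0.14, adjusted p = 0.360, edgeR). Without Sham replicate 3 it was called in OVX vs. Sham (-0.38) as well as OVX-AS-IV-High vs. Sham (-0.37), and without OVX-AS-IV-High replicate 3 in the latter (-0.34).

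**Figure D2:**
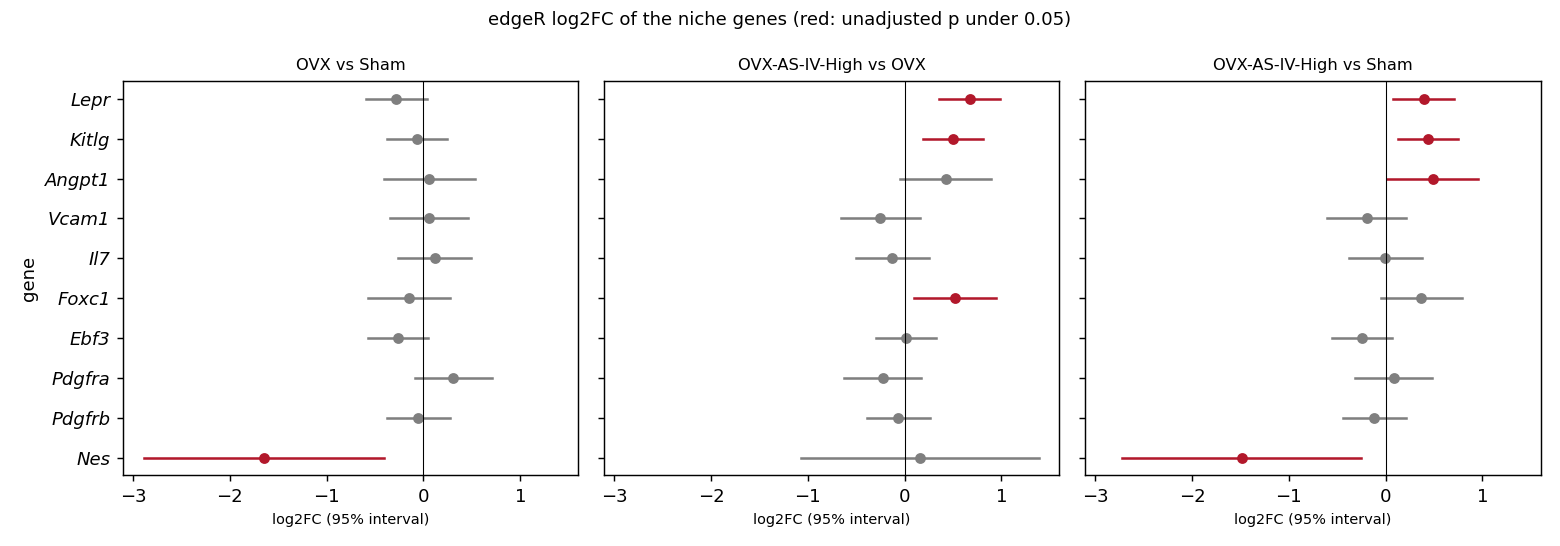
Log2FC of each niche gene (points, x axis) with its 95% interval (lines) in 3 comparisons, from edgeR, with genes at an unadjusted p under 0.05 in red. Lepr (0.67), Foxc1 (0.52) and Kitlg (0.50) are red in OVX-AS-IV-High against OVX, and Nes (-1.65) is red in OVX vs. Sham.

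Lepr, Kitlg and Foxc1 were the members called in OVX-AS-IV-High against OVX, and their promoter windows are shown for that reason. RefSeq gives windows of 300 bases for 7 of the 10 members on build GRCr8; the files were made on mRatBN7.2. Motifs were searched on both strands. The core bound by forkhead factors was spelled TGTTTA. The core bound by EBF factors was spelled CCCNNGGG. The GC box of many promoters was spelled GGGCGG, and the box bound by the TATA-binding protein was spelled TATAAA. A match is a description of the sequence. Lepr overlaps Leprot in the RefSeq table, so its window may lie within Leprot, which was not tested. Capitals mark matches, and overlapping matches run together. The windows lie at chr5:121409485-121409784 on the + strand (Lepr), chr7:36782410-36782709 on the + strand (Kitlg) and chr17:32844051-32844350 on the - strand (Foxc1).
Lepr: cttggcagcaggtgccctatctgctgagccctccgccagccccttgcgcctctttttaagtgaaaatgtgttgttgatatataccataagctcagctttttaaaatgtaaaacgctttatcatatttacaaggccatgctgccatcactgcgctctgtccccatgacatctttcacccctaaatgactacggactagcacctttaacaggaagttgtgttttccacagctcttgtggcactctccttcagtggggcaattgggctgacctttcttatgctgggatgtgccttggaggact
Kitlg: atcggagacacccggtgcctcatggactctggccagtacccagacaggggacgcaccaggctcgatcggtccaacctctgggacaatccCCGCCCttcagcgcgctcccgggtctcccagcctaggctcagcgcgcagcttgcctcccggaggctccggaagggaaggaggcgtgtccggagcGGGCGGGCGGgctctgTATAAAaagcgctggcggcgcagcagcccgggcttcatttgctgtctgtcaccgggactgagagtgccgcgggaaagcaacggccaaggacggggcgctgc
Foxc1: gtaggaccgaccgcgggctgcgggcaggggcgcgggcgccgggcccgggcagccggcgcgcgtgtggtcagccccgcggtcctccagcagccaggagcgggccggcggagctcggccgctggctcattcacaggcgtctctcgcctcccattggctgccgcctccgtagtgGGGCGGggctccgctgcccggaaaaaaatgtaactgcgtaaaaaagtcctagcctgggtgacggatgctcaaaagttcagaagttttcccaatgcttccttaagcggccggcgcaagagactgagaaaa
The Lepr window held 0 matches and 47.7% G and C, the Kitlg window 3 GGGCGG and 1 TATAAA at 68% G and C, and the Foxc1 window 1 GGGCGG at 66.7%. Over all 33469 windows the median was 51.7% G and C. GGGCGG was in 33.1% of them and in the windows of Kitlg, Foxc1, Ebf3 and Nes. TATAAA was in 14.2% of them and in the windows of Kitlg and Vcam1. CCCNNGGG was in 12.4% of them and in the window of Ebf3, while TGTTTA was in 13.7% of them and in 0 windows of members.

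The members called were counted beside all genes tested. The members were chosen with earlier results of these data known, so these shares are no test of the set. In OVX-AS-IV-High against OVX, 3 of 10 members were called, all higher, where 6.45% of all genes tested were called. With an absolute log2FC over 1 added as the threshold for DEGs, 0 members were DEGs in edgeR, against 0.83% of all genes. The study also states a threshold of 0.58, at which 1 member, Lepr, was a DEG, against 2.19% of all genes, and Nes stayed the only DEG of OVX vs. Sham (6.96% of all genes), OVX-AS-IV-High vs. Sham (6.92%) and both groups vs. Sham (7.58%). The groups did not overlap in CPM for 3 members, Lepr and Kitlg (higher) and Il7 (lower), as for 12.7% of all genes. In OVX vs. Sham, 1 member, Nes, was called (16.4% of all genes) and was a DEG (3.11%), and 1, Pdgfra, did not overlap (23.3%). In OVX-AS-IV-High vs. Sham, Kitlg, Lepr and Angpt1 were higher and Nes lower, so 4 of 10 were called (17.6%). There, 1 member, Nes, was a DEG (3.15%), and 2, Lepr and Kitlg, did not overlap (19.9%). With both ovariectomized groups against Sham, 1 member, Nes, was called (21%) and was a DEG (3.5%), and 0 did not overlap (9.84%).

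After Benjamini-Hochberg adjustment over all 16874 genes, edgeR called 0 members in all 4 comparisons, beside the unadjusted 1, 3, 4 and 1. Of all genes, edgeR called 0% in each comparison of a pair of groups and 0.101% with both ovariectomized groups against Sham. DESeq2 gave an adjusted p under 0.05 to Lepr in OVX-AS-IV-High against OVX (adjusted p = 0.0195, log2FC 0.69, all 3 treated libraries above all OVX libraries). It also gave it to Nes in OVX vs. Sham (adjusted p = 0.0295, log2FC -1.65), where OVX replicate 1 lay above Sham replicate 3. With both ovariectomized groups against Sham, DESeq2 gave Nes an adjusted p of 0.00998 (log2FC -1.57), and in OVX-AS-IV-High vs. Sham it called 0 members. Of 22999 genes, DESeq2 gave an adjusted p under 0.05 to 790 in OVX vs. Sham, 27 in OVX-AS-IV-High against OVX, 951 in OVX-AS-IV-High vs. Sham and 1349 with both groups vs. Sham. Limma on log2(FPKM + 1) gave an adjusted p under 0.05 to 0 members in all comparisons, beside unadjusted counts of 1, 3, 3 and 1. Of all 16874 genes, limma called 0, 0, 4 and 6 after adjustment and 2895, 1140, 2951 and 3516 before it.

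Nes stood at 2.57, 2.44 and 0.910 FPKM in Sham, from 615, 568 and 217 counts. It stood at 0.992, 0.529 and 0.403 FPKM in OVX, then 1.20, 0.528 and 0.359 FPKM for OVX-AS-IV-High. Sham replicates 1 and 2 were far above the rest, while Sham replicate 3 lay below replicate 1 of both other groups, so all groups overlapped. The log2FC of Nes was -1.65 ± 0.55 in OVX vs. Sham (adjusted p = 0.206, edgeR) and -1.49 ± 0.55 in OVX-AS-IV-High vs. Sham (adjusted p = 0.217, edgeR), both called. With both ovariectomized groups against Sham it was -1.57 ± 0.45 (called, adjusted p = 0.118, edgeR), and in OVX-AS-IV-High against OVX it was 0.16 ± 0.54 (adjusted p = 0.991). The call in OVX vs. Sham was lost without OVX replicate 3 (log2FC -1.41). The call in OVX-AS-IV-High vs. Sham was lost without Sham replicate 1 (-1.27), Sham replicate 2 (-1.28), OVX-AS-IV-High replicate 2 (-1.32) or OVX-AS-IV-High replicate 3 (-1.17).

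In each group, the libraries stood in the same order for summed muscle markers as for Nes. The skeletal muscle list, 11 genes of 12 listed, summed to 6790, 4704 and 1159 FPKM in Sham, 2584, 1434 and 1224 in OVX, then 3627, 1569 and 424 for OVX-AS-IV-High. Replicate 1 was highest in every group for both the list and Nes, and Sham replicates 1 and 2 were the highest of all libraries for both. Acta1, the actin of skeletal muscle, was the most abundant gene of the list, at 1825, 1519 and 252 FPKM in Sham, and 0 genes of the list lay at 3 counts or fewer in every library. In OVX vs. Sham, 0 of its 11 genes were called in either direction by edgeR, with a median log2FC of -1.10 against -0.01 over all genes. With the muscle level as a covariate, a fit added after the data were seen, the log2FC of Nes in OVX vs. Sham was -0.96 (called, adjusted p = 0.157, edgeR).

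Some vessel markers fell in OVX vs. Sham, as Nes did. The pericyte and smooth muscle list summed to 238, 201 and 123 FPKM in Sham, 120, 114 and 63.8 in OVX, then 113, 125 and 82.8 in OVX-AS-IV-High, with Tagln its most abundant gene. Of its 11 genes, 5 fell and 0 rose in OVX vs. Sham. The endothelium list summed to 214, 202 and 160 FPKM in Sham, 167, 178 and 130 in OVX, then 136, 141 and 139 for OVX-AS-IV-High, with Pecam1 its most abundant gene, and the sums of Sham and OVX overlapped. Of its 15 genes, 4 fell and 0 rose in OVX vs. Sham, and Pecam1 was not called. In OVX-AS-IV-High against OVX, where Lepr, Kitlg and Foxc1 were called, Pecam1 fell and was the only gene of both lists to be called. The share of all genes called there was 6.45%. In OVX-AS-IV-High vs. Sham, 9 of 15 endothelium genes fell, Pecam1, Tek and Cdh5 among them, as did 6 of 11 pericyte and smooth muscle genes, and 0 rose in either list. These counts stand beside 17.6% of all genes called in OVX-AS-IV-High vs. Sham. In both lists, 0 genes lay at 3 counts or fewer in every library. The part of vessels in these results was not tested.

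**Figure D3:**
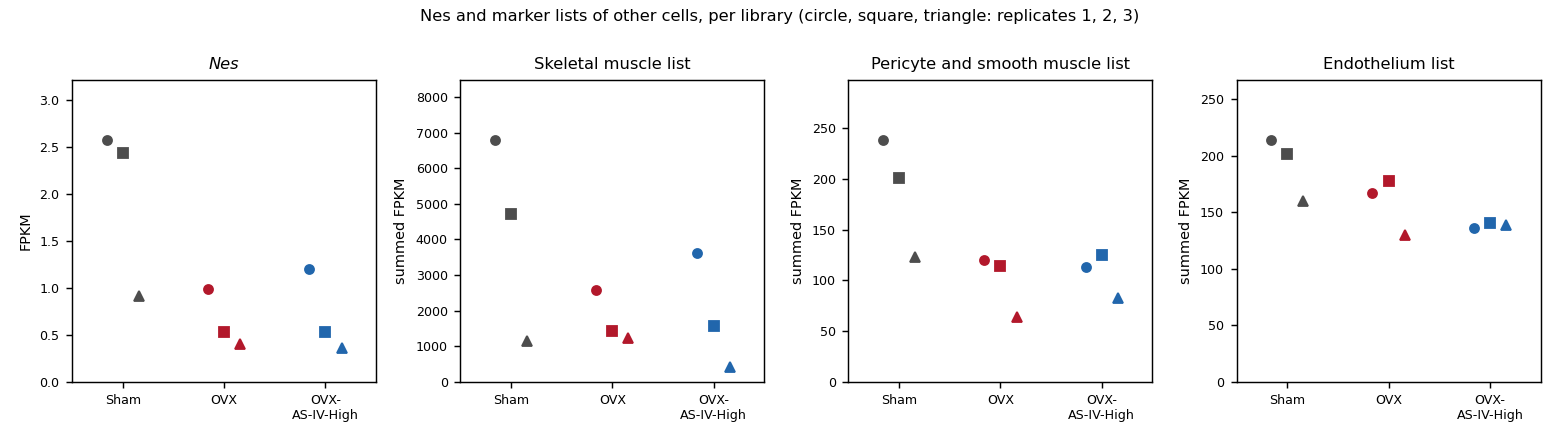
FPKM of Nes and summed FPKM of 3 marker lists (y axes, from 0) in each library (points, shaped by replicate) of each group (x axis). Sham replicates 1 and 2 are highest in all 4 panels, and Sham replicate 3, at 0.910 FPKM of Nes, lies near the ovariectomized libraries for Nes and skeletal muscle.

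The muscle covariate also bore on other members. With it, the log2FC of Angpt1 was 0.47 in OVX-AS-IV-High against OVX (adjusted p = 0.132, edgeR) and 0.78 in OVX-AS-IV-High vs. Sham (adjusted p = 0.0397), both called. The calls of Lepr (log2FC 0.66), Kitlg (0.52) and Foxc1 (0.51) in OVX-AS-IV-High against OVX were kept with it. Lepr was no longer called in OVX-AS-IV-High vs. Sham (log2FC 0.32, adjusted p = 0.310, edgeR). Calls gained with it were Lepr (log2FC -0.34) and Angpt1 (0.30) in OVX vs. Sham, Vcam1 (-0.37) in OVX-AS-IV-High vs. Sham, and Angpt1 (0.54) with both groups vs. Sham. With the covariate, 11.9% of all genes were called in OVX-AS-IV-High against OVX, beside 6.45% without it. In OVX-AS-IV-High vs. Sham these shares were 16.9% and 17.6%. After adjustment, 204 of 16874 genes passed there with the covariate and 0 without it. The shares with the covariate were 14.8% in OVX vs. Sham and 17.6% with both groups vs. Sham.

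Other genes of the niche stroma were counted from a list of 30, of which 29 were tested. In OVX-AS-IV-High against OVX, 1 rose and 1 fell, with a median log2FC of -0.03, against 0.09 for the 10 members and -0.02 over all genes. These 2 of 29, and counts of any list in that comparison, stand beside 6.45% of all genes called. Counts of any list in OVX vs. Sham stand beside 16.4%. The gene that rose was Cxcl14, a stromal chemokine, at 101, 142 and 115 FPKM in OVX, then 147, 156 and 193 in OVX-AS-IV-High (log2FC 0.50 ± 0.15, adjusted p = 0.652, edgeR). The gene that fell was Ebf1, a transcription factor of both stroma and B cells (log2FC -0.23 ± 0.10, adjusted p = 0.765, edgeR). That call of Ebf1 was lost in 6 of 9 fits that left out a library, with log2FC from -0.29 to -0.16. In OVX vs. Sham, 5 rose and 4 fell. Ebf1 rose by a log2FC of 0.44 ± 0.10 and Dpp4, a protease of progenitors, by 0.94 ± 0.27, while Eng, a TGF-beta co-receptor, changed by -0.35 ± 0.09 and Il6st, the shared receptor of the IL-6 family, by -0.47 ± 0.12.

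**Figure D4:**
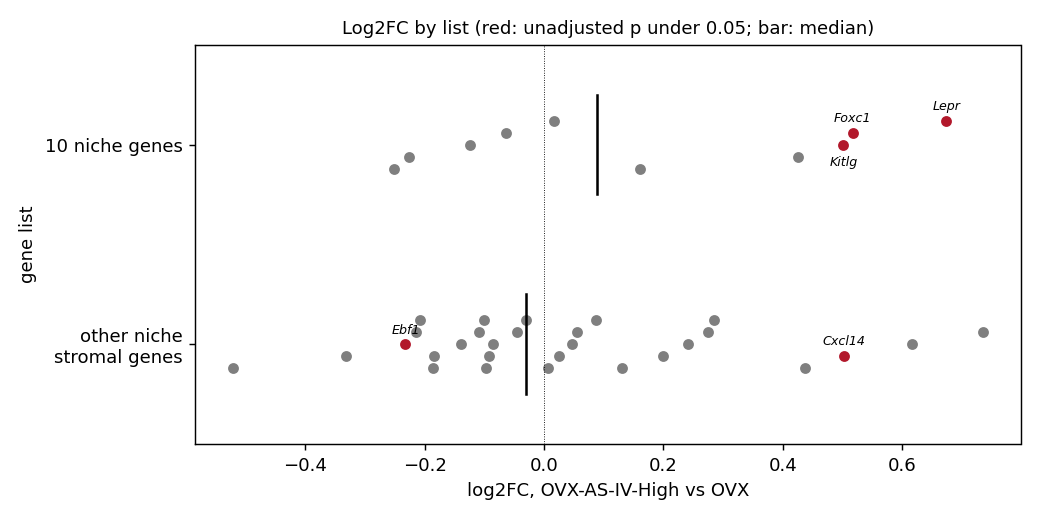
Log2FC in OVX-AS-IV-High against OVX (x axis) of the 10 niche genes and of 29 other niche stromal genes (rows), each point a gene, with bars at the medians and genes at an unadjusted p under 0.05 in red. The medians are 0.09 and -0.03, and the red genes are 3 of 10 and 2 of 29, where 6.45% of all genes were called.

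The members were also set beside their ligands and receptors, as ratios of FPKM with no test. The ratio of Kitlg to Kit was 2.64, 2.29 and 1.91 in Sham, 1.90, 1.90 and 1.77 in OVX, then 2.79, 3.56 and 2.17 in OVX-AS-IV-High. Every Sham and OVX-AS-IV-High ratio lay above every OVX ratio, Sham replicate 3 by little, and Sham overlapped OVX-AS-IV-High. Angpt1 to Tek was 0.929, 1.10 and 0.892 in Sham, 1.30, 1.06 and 1.05 in OVX, then 2.15, 1.73 and 1.23 in OVX-AS-IV-High, where replicate 3 lay below OVX replicate 1. Tek itself was called lower in OVX-AS-IV-High vs. Sham (log2FC -0.32 ± 0.11, adjusted p = 0.190, edgeR). Lepr to Lep, the gene of leptin, was 24.8, 14.5 and 20.0 in Sham, 4.39, 1.17 and 5.72 in OVX, then 10.8, 8.94 and 6.87 in OVX-AS-IV-High, so the 3 groups did not overlap. Vcam1 to Itga4 was 14.7, 9.46 and 9.81 in Sham, 6.23, 8.32 and 8.57 in OVX, then 8.18, 6.16 and 5.03 in OVX-AS-IV-High, with Sham above the rest. Vcam1 itself overlapped between the groups, while Itga4 ranged from 3.11 to 7.22 FPKM in Sham. In OVX, Itga4 ranged from 7.47 to 8.27 FPKM, and in OVX-AS-IV-High from 5.49 to 10.3. Il7 to Il7r ranged from 0.160 to 0.467 in Sham, where replicate 3 was the lowest of all libraries, from 0.176 to 0.285 in OVX, and from 0.162 to 0.219 in OVX-AS-IV-High.

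**Figure D5:**
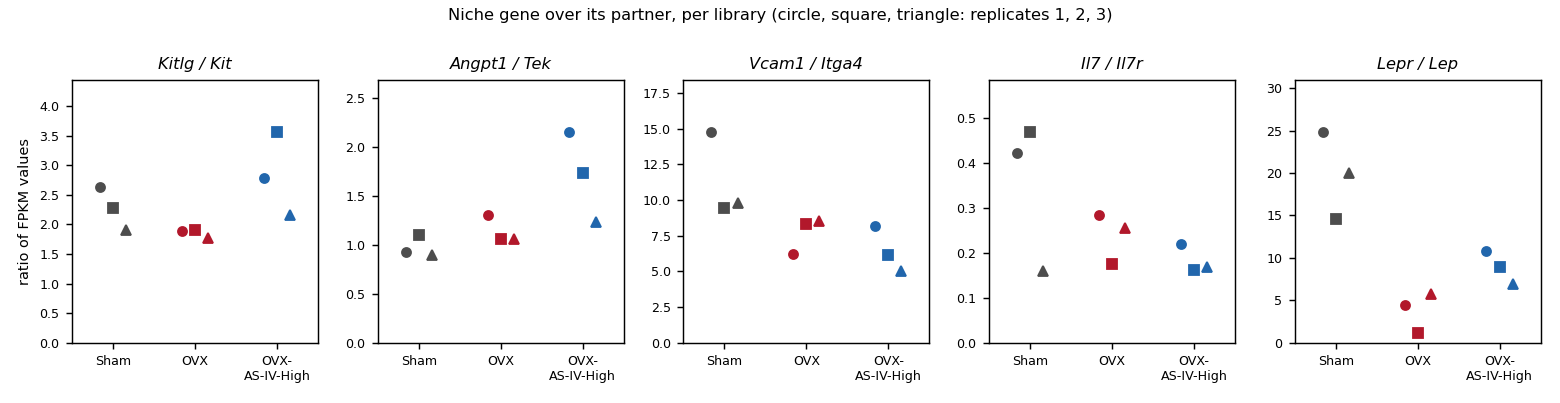
Ratio of the FPKM of a niche gene to that of its partner (y axes, from 0) in each library (points, shaped by replicate) of each group (x axis). For Kitlg over Kit the OVX-AS-IV-High libraries, from 2.17 to 3.56, lie above the OVX libraries, from 1.77 to 1.90.

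Of 20 partner genes of the members, 3 rose and 2 fell in OVX vs. Sham, and 0 rose and 1 fell for OVX-AS-IV-High against OVX. Lep stood at 0.381, 0.635 and 0.586 FPKM in Sham, 1.99, 6.05 and 1.67 in OVX, then 1.14, 1.59 and 1.90 in OVX-AS-IV-High. All libraries of both ovariectomized groups lay above Sham, and OVX replicate 2 was the highest (log2FC in OVX vs. Sham 2.56 ± 0.49, adjusted p = 0.129, edgeR). Lep is also an adipocyte marker, and of the 10 other markers on that list, 6 rose and 0 fell in OVX vs. Sham. Those 10, led by Fabp4, summed to 590, 605 and 796 FPKM in Sham, 813, 1109 and 1041 in OVX, then 815, 1024 and 1011 for OVX-AS-IV-High. Itgb7, an integrin chain, rose (log2FC 0.41 ± 0.09), and Stat5a (-0.30 ± 0.10) and Pdgfb (-0.46 ± 0.17) fell in OVX vs. Sham, while Itga9 fell in OVX-AS-IV-High against OVX (-0.29 ± 0.10). The call of Pdgfb was lost in 4 of 9 fits that left out a library, and that of Itga9 with limma at a pseudocount of 0.1. The most abundant partner was Itgb1, between 61.0 and 83.1 FPKM.

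Genes of the cells that use these factors were counted in the same way. RNA from whole bone does not show which cells made it. Of 15 genes of blood stem and progenitor cells, 1 rose and 4 fell in OVX vs. Sham, and 0 changed for OVX-AS-IV-High against OVX. Of all genes, 16.4% and 6.45% were called in these comparisons. Flt3 was the gene that rose. Hlf (log2FC -1.11 ± 0.30), Tal1 (-0.66 ± 0.17), Gata2 (-0.61 ± 0.27) and Procr (-0.39 ± 0.15) were the genes that fell. The call of Gata2 was lost in 5 of 9 fits that left out a library and with limma at both pseudocounts, and that of Procr in 6 of 9. Of 12 genes of the early B lineage, 10 rose and 0 fell in OVX vs. Sham, and 0 rose and 3 fell for OVX-AS-IV-High against OVX. Those that fell were Pax5, Cd79b and Ebf1, the last counted above as a stromal gene as well. The call of Cd79b was lost in 7 of 9 fits that left out a library, and that of Ebf1 in 6. Cd79a, its most abundant gene, stood at 213, 204 and 292 FPKM in Sham, 387, 416 and 396 in OVX, then 244, 284 and 377 for OVX-AS-IV-High. Il7, which these cells need, was not called in either comparison.

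Likeness was described by Pearson's r of log2 CPM over all 9 libraries, which share their groups, with no test. For each member up to 3 of the most alike genes are given, found among all genes tested, members excluded. Lepr was most like Zbtb10, Klhdc1 and Tarbp1 (r = 0.937, 0.936 and 0.936), Kitlg like Yes1, Zbtb44 and Tm2d3 (0.923, 0.904 and 0.903), and Foxc1 like Sema6d, Nr4a2 and Eif4enif1 (0.917, 0.911 and 0.905). Angpt1 was most like Fcar, Kbtbd2 and Klhl2 (0.971, 0.967 and 0.966), and Vcam1 like Cdh17, Fndc4 and Nkain1 (0.960, 0.955 and 0.949). The closest genes differed for every member. Il7 was most like Znf768, LOC680700 and LOC102549998 (0.984, 0.928 and 0.915), and Ebf3 like Camk1g, Med4 and LOC102551271 (0.965, 0.943 and 0.934). Pdgfra was most like Pcsk5, Mmp2 and Rarres2 (0.947, 0.944 and 0.939), of which Mmp2 encodes a matrix protease. Pdgfrb was most like Grik4, Clca2 and Appl2 (0.954, 0.935 and 0.933), and Nes like Pmvk and Fam131a (0.992 and 0.990).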

How the data were processed

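Bone RNA of 9 rats in 3 groups of 3 was sequenced as stranded, poly(A)-selected libraries. Low-quality reads were removed, and the rest were aligned with Tophat and Bowtie2 and quantified with eXpress; the submitters' processing notes name build mRatBN7.2. The authors deposited counts as whole numbers without normalization, and FPKM; how eXpress estimates became whole numbers is not given in the sources used here. For 11928 genes counted 100 times or more everywhere, the deposited FPKM kept a fixed ratio to the counts, to within 1% after scaling for depth.

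Counts were tested with edgeR 4.0.16 (R 4.3.3; TMM, default filter with minimum count 10) in a fit of all 9 libraries, with Benjamini-Hochberg adjustment over 16874 genes. Alternatives were DESeq2 1.42.0, limma 3.58.1 on log2(FPKM + 1) and log2(FPKM + 0.1), RLE size factors, no filter, a replicate block, only the groups compared, and leaving out each library; the muscle covariate, Sham replicate 3 alone and a block with only OVX and OVX-AS-IV-High, and a log2FC threshold of 0.58 for DEGs, were added after seeing the data. The tests were tried on simulated data, of which no outcome is given or used here. An exact two-sided permutation test of 3 against 3 libraries cannot go below p = 0.1. Libraries of OVX and OVX-AS-IV-High with the same number deviated together (r = 0.31, 0.158 and 0.13), all over 0.1, so the number was taken to pair them. Sham gave 0.2, -0.161 and 0.253 with OVX and 0.314, -0.158 and 0.435 with OVX-AS-IV-High, and was not taken as paired. The replicate block over all 9 libraries still covered the Sham libraries. In all 3 pairs of groups, replicate 2 correlated better with another number than with its own.

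The 10 members and the gene lists were chosen with earlier results of these data known. Named from 4 lists (other stroma, partners, stem and progenitor cells, early B lineage) were up to 5 genes with the smallest unadjusted p under 0.05 in any comparison and the most abundant gene; for each member, up to 3 of the most alike genes (log2 CPM, prior count 2) were named. Some genes that these rules select are not reported here. At 3 counts, the limit of detection, a gene lies between 0.0804 and 0.086 CPM. The RefSeq gene table (GRCr8) held 21651 of 23026 identifiers and was used for names and neighbours.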

Additional observations from a re-analysis of the deposited data

How the results depend on the processing

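In 7 alternatives set before these tests were run, other than leaving out a library, the calls of Lepr, Kitlg and Foxc1 in OVX-AS-IV-High against OVX and of Nes in OVX vs. Sham kept their direction and their side of the threshold. Leaving out a library, also set beforehand, lost the call of Foxc1 in 3 of 9 fits and that of Nes in 1 of 9. The member counts changed by over 1.5 times as follows, and the cause was not tested. With only the groups compared, OVX vs. Sham had 2 members (17% of all genes were called); with the replicate block, both ovariectomized groups vs. Sham had 2 (25.6%). With the muscle covariate these comparisons had 3 (14.8%) and 2 (17.6%), and with Sham replicate 3 as the only Sham library the latter had 0 in edgeR (8.39% of all genes; 1 member in the fit of all 9 libraries, 1 in DESeq2). That library was chosen after its low muscle and Nes levels were seen, so its smaller log2FC of Nes follows from the choice and is no test. With it, Nes was not called in OVX vs. Sham (-0.53), OVX-AS-IV-High vs. Sham (-0.37) or both groups vs. Sham (-0.45), and Lepr lost its call in OVX-AS-IV-High vs. Sham (0.19, from 0.39). Calls gained were Lepr in OVX vs. Sham (-0.49) and Vcam1 in OVX-AS-IV-High vs. Sham (-0.49). Leaving out a library gave 1 to 2 members in OVX vs. Sham (10.3% to 25.2% of all genes), 2 to 4 in OVX-AS-IV-High against OVX (3.95% to 8.32%), 1 to 5 in OVX-AS-IV-High vs. Sham (11.2% to 23.3%) and 1 to 3 with both groups vs. Sham (12.2% to 27.9%). Without OVX replicate 3 the member called in OVX vs. Sham was Lepr, not Nes.

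The replicate block changed the call of Angpt1 in OVX-AS-IV-High against OVX (log2FC 0.40, called; also 0.40 and called with only these groups) and with both groups vs. Sham (0.26, called). It changed no other member's call. Replicate 2 correlated better with another number than with its own in every pair of groups, OVX with OVX-AS-IV-High included, so the pairing is uncertain.

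Signs turned only for log2FC that were not called. Il7 in OVX-AS-IV-High vs. Sham, -0.0054 in edgeR, was 0.0045 with DESeq2, 0.0032 with RLE, 0.0059 without the filter, 0.011 with only the groups compared, 0.0041 with the replicate block and 0.091 with the muscle covariate. Ebf3 in OVX-AS-IV-High against OVX was -0.023 and -0.020 with limma at pseudocounts of 0.1 and 1. With the muscle covariate, Vcam1 in OVX vs. Sham was -0.085 and Lepr in both groups vs. Sham -0.012. With Sham replicate 3 as the only Sham library, OVX vs. Sham gave Kitlg 0.017, Vcam1 -0.24, Ebf3 0.023 and Pdgfrb 0.16; OVX-AS-IV-High vs. Sham gave Il7 0.21, Ebf3 0.041, Pdgfra -0.016 and Pdgfrb 0.095; both groups vs. Sham gave Lepr -0.15, Foxc1 -0.056, Ebf3 0.032 and Pdgfrb 0.13.

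Leaving out a library turned signs within these ranges. In OVX vs. Sham they were -0.15 to 0.0034 for Kitlg, -0.063 to 0.17 for Angpt1, -0.095 to 0.24 for Vcam1, -0.36 to 0.018 for Foxc1 and -0.23 to 0.044 for Pdgfrb. In OVX-AS-IV-High against OVX they were -0.083 to 0.084 for Ebf3, -0.16 to 0.11 for Pdgfrb, -0.51 to 0.62 for Nes and -0.11 to 0.051 for Leprot. In OVX-AS-IV-High vs. Sham they were -0.097 to 0.10 for Il7, -0.14 to 0.23 for Pdgfra and -0.025 to 0.092 for Leprot. With both groups vs. Sham they were -0.0056 to 0.17 for Lepr, -0.21 to 0.12 for Vcam1 and -0.035 to 0.16 for Il7. With 3 libraries a group, small differences in Nes, whose SE was the largest of the members, were the least precise.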

Other observations

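Markers of other cells that bone can hold were counted in OVX vs. Sham and for OVX-AS-IV-High against OVX, with no test of a list. Of all genes, 16.4% and 6.45% were called in these comparisons. Of 10 osteoblast genes, 1 rose in OVX vs. Sham, the osteocalcin gene Bglap, and 0 changed for OVX-AS-IV-High against OVX. Of 9 chondrocyte genes, 1 fell in OVX vs. Sham, and of 10 fibroblast and periosteum genes, 0 changed in either comparison. Of 10 neutrophil genes tested, 3 rose in OVX vs. Sham (Fcnb, Elane and Mpo), and 0 changed for OVX-AS-IV-High against OVX. Of 10 erythroid genes, 3 fell in OVX vs. Sham, Epor, Hba-a1 and Hba-a2.

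Of 10 macrophage genes, 0 changed in OVX vs. Sham and 1, Cd163, fell in OVX-AS-IV-High against OVX. Of 8 megakaryocyte genes, 8 proliferation genes and 5 muscle stem cell genes tested, 0 changed in either comparison in edgeR. The muscle stem cell list summed to 212, 179 and 39.1 FPKM in Sham, 72.8, 41.2 and 33.2 in OVX, then 97.7, 38.2 and 16.7 in OVX-AS-IV-High, mostly from Des.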
